A study of Mus musculus with 9 samples.

Results

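Retinoic acid is the active form of vitamin A. The genes described here are those that make it, break it down, bind it in the cytosol and carry its signal into the nucleus, in mouse urogenital sinus (UGS) after fetal exposure to bisphenol A (BPA) or diethylstilbestrol (DES). They are Cyp26a1, Cyp26b1, Aldh1a1, Aldh1a2, Aldh1a3, Rara, Rarb, Rarg, Crabp1 and Crabp2, taken by symbol. The choice was made with earlier results of these data known. Every Affymetrix probe set annotated to 1 of these symbols alone was kept, which gave 13 probe sets for the 10 genes among 45101 probe sets on the array, which name 18194 genes singly. Aldh1a3 had 3 probe sets, Rarg had 2 and the other genes had 1 each. All 13 passed the filter on low signal, as did 26999 probe sets in all.

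The UGS is the embryonic tube of epithelium and mesenchyme below the bladder that forms the prostate in males and part of the vagina and urethra in females. Pregnant C57BL/6 mice received BPA, a weakly estrogenic plastic monomer, at 20 µg/kg/day, or 0.2 µg/kg/day of the potent estrogen DES, or vehicle with no agent. The vehicle, corn oil stripped of tocopherol, was common to all groups, and exposure ran from embryonic day 13 to embryonic day 16 (E13 to E16). Tissue was taken 1 day after the last dosing day (E17), at E18 and on the day of birth (P0), with bladder, urethra and the Wolffian and Müllerian duct derivatives dissected away from tracts of both sexes. Which sex or sexes an array holds is not given in the sources used here.

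There were 3 arrays per agent, 1 at each of 3 ages, and 9 in all. The groups were BPA at E17, E18 and P0, DES at the same ages, and vehicle control at the same ages. The number of animals or litters behind an array is not given in the sources used here, and no agent and age combination was repeated. The error in the tests is therefore what the arrays leave over after a common age effect and a common agent effect, and it holds no repeat of any single condition. In whole tissue, fewer cells of a type and less RNA per cell cannot be told apart.

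As background, retinol is oxidised to retinaldehyde, and the retinaldehyde dehydrogenases Aldh1a1, Aldh1a2 and Aldh1a3 oxidise that to retinoic acid. The cytochromes Cyp26a1 and Cyp26b1 hydroxylate retinoic acid and so remove it, while Crabp1 and Crabp2 bind it in the cytosol. The nuclear receptors Rara, Rarb and Rarg pair with retinoid X receptors on direct repeats of a hexamer in DNA, and Cyp26a1 and Rarb are classical genes induced by retinoic acid through such repeats in their promoters. In the urogenital tract, lack of vitamin A is known for turning epithelium into keratinised squamous epithelium.

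Promoter windows of 300 bases, 250 before and 50 after the annotated start, were available from RefSeq (GRCm38.p6) for 8 of the 10 genes; Aldh1a3 and Crabp2 are named only. These windows were searched on both strands for direct repeats of the hexamers AGGTCA or else AGTTCA or else GGGTCA or else GGTTCA, in any pairing, with a spacer of 1, 2 or 5 bases. Among the 8 genes a repeat was found in Cyp26a1 and Rarb alone, each with the spacer of 5 bases. The windows of these genes are shown because they hold the receptors' classical recognition sequence, with both hexamers in capitals. The Cyp26a1 window lies at chr19:37697558-37697857 on the plus strand and the Rarb window at chr14:16575427-16575726 on the minus strand, and both read 5′ to 3′ along the gene. The start used for each window lies inside the span of its gene, chr19:37697738-37701536 for Cyp26a1 and chr14:16430839-17082331 for Rarb. It is therefore not the outermost start of the gene.
Cyp26a1: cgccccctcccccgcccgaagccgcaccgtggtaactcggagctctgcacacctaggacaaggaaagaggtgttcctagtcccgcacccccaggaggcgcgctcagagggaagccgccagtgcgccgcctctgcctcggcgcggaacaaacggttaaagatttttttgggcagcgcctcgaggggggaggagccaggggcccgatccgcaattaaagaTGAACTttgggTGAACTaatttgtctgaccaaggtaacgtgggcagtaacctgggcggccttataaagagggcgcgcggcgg
Rarb: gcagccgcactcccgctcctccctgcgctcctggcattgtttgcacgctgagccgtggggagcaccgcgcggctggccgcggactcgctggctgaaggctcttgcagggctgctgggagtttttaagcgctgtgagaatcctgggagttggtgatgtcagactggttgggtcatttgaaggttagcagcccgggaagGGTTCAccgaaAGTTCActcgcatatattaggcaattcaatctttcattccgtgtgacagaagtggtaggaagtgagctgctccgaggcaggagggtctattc
The match in Cyp26a1 was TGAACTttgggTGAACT, whose hexamers read AGTTCA on the strand opposite to the gene, and its first base lay at -32 from the start. The match in Rarb was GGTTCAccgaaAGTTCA on the strand of the gene, with its first base at -53. Of 32851 promoter windows of this length, 0.0974% held such a repeat with a spacer of 5 bases, 0.268% with a spacer of 2 and 0.222% with a spacer of 1, whereas 43.7% held a single hexamer. A match describes letters in this window and is not evidence of binding. Several windows each were searched for Aldh1a1, Rara and Rarg. Other hexamers and bases outside the windows were not searched, so a gene without a match here can still hold such a repeat.

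Signals were brought to a common distribution by quantile normalization, because the deposited arrays differed in overall brightness, with a trimmed mean from 157 for BPA at P0 to 277 for DES at E17. Pairs of arrays correlated between 0.954 and 0.985 over the probe sets that passed the filter on low signal. Of the 8 UGS markers analysed, 7 passed the filter, including the signalling ligand Shh at 1136 to 1949 and the posterior homeobox gene Hoxd13 at 1080 to 1596, and the prostate gene Hoxb13 did not, at 24.5 to 61.2. The BPA P0 array was the highest of all arrays in 7 of 9 gonad and steroid cell genes, by unequal margins. Hsd3b1, a steroid synthesis enzyme, was at 886.5 on that array against 4.27 to 10.4 on the others, and Amh, the Sertoli cell hormone, was at 296 against 3.33 to 8.10. Cyp11a1, also among the 7, was at 38.8 against 20.2 to 33.9, below the filter signal of 41.2. Star (101 against 37.6 to 121.5) and Sox9 (184 against 141 to 267) lay within the range of the other arrays. The BPA E18 and BPA P0 arrays also had high summed signals of 7 keratinised epithelium genes, 7680 and 19716, against 995 to 1104 in controls.

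In the BPA arrays the breakdown enzyme Cyp26a1, a gene that retinoic acid itself induces, was lower than control at every age, but no retinoic acid gene passed the test. Normalised Cyp26a1 signal in BPA arrays was 49.2, 62.0 and 92.7 in order of age (E17, E18, P0), against 121, 104 and 75.9 in DES arrays, and 118, 104 and 127 in control arrays. The 3 BPA arrays all lay below the 3 control arrays, while the DES arrays overlapped with both. The BPA values at E17 and E18 were below the median signal of an array, 70.6. The E17 value was near the filter signal of 41.2. With age as a factor, Cyp26a1 was 1.71-fold lower under BPA than in control, a log2 difference of -0.77 ± 0.25 (SE, 95% interval -1.34 to -0.20, adjusted p = 0.496). In that comparison 2.6% of tested probe sets had a smaller p. The matched-age log2 differences were -1.18 (E17), -0.70 (E18) and -0.43 (P0). The fitted log2 difference was -0.50 when the BPA E17 array was left out, and it was -1.31 when both BPA E18 and BPA P0 were left out.

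The DES arrays showed no such order for Cyp26a1. Their log2 difference from control was -0.22 ± 0.25 (SE, 95% interval -0.79 to 0.34, adjusted p = 0.913), made of 0.04 at E17, -0.00 at E18 and -0.70 at P0. BPA against DES gave -0.55 ± 0.25 (SE, adjusted p = 0.692), which did not pass, and was -0.28 without BPA E17 and -0.83 without BPA P0. Both agents were compared with the same 3 control arrays, and their differences from control are not independent of each other.

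Cyp26b1, the family member known in the fetal mouse testis for clearing retinoic acid around germ cells, was low at E18 on the BPA and DES arrays. Its signal was 109, 16.7 and 161 at E17, E18 and P0 in BPA arrays, 123, 44.6 and 93.7 in DES arrays, and 109, 102 and 138 in control arrays. The lowest values were those of the BPA and DES arrays at E18, whereas all 3 arrays at E17 lay between 109 and 123. On the BPA array that value was below the filter signal of 41.2, and on the DES array it was just above it. Both are thus near the level of dim probe sets, and the control value at E18 was close to that at E17. The log2 difference of E18 against E17 was -1.27 ± 0.42 (SE, 95% interval -2.20 to -0.35, adjusted p = 1), and without the BPA E18 array it was -0.63. The arrays of these ages did not overlap, either after quantile normalization or after scaling to a trimmed mean. P0 against E18 gave 1.44 ± 0.42 (SE, adjusted p = 0.274) with overlapping arrays, and 0.80 without the BPA E18 array. BPA against control was -0.69 ± 0.42 (SE, adjusted p = 0.741), nearly all from E18, where it was -2.28, and it was -0.046 without the BPA E18 array, -0.14 without the control E18 array and -1.15 without the BPA P0 array. DES against control was -0.49 ± 0.42 (SE, adjusted p = 0.88). Among tested probe sets, 98.9% had a smaller residual SD than Cyp26b1 in the fit of age and agent.

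**Figure D1:**
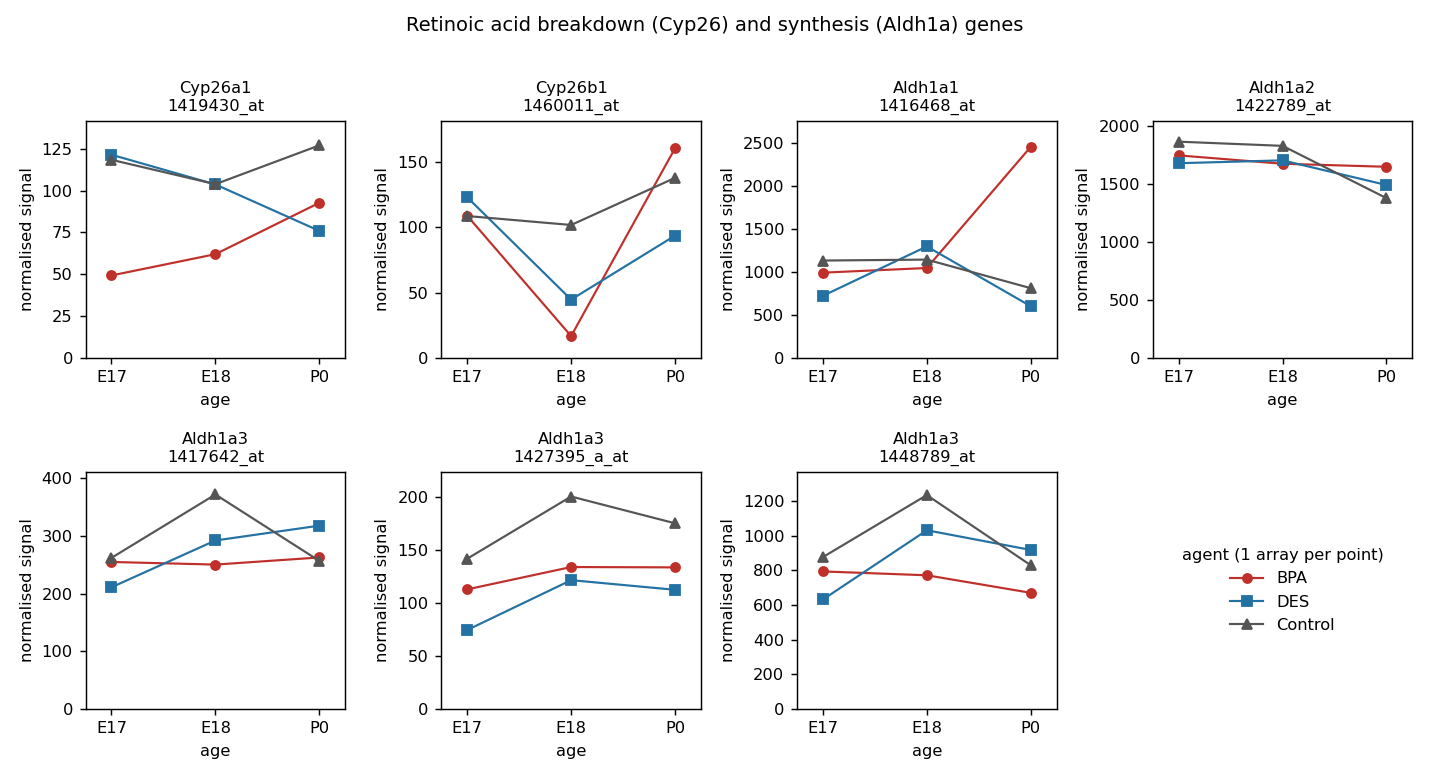
Normalised signal (linear axis from 0) of the enzyme probe sets on the 9 arrays, by age at E17, E18 and P0, with BPA, DES and control drawn as separate series and 1 array per point. BPA arrays lie below control for Cyp26a1 at each age (49.2, 62.0 and 92.7 against 118, 104 and 127), and Cyp26b1 dips at E18 in BPA (16.7) and DES (44.6) but not in control (102).

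Of the synthesis enzymes, Aldh1a2, the main retinaldehyde dehydrogenase of embryonic mesenchyme, had fitted differences from control near 0 under both agents. Its signal was 1749, 1676 and 1650.2 at E17, E18 and P0 in BPA arrays, 1681, 1706 and 1493 in DES arrays, and 1867, 1831 and 1379 in control arrays. BPA against control was 0.01 ± 0.09 on the log2 scale (SE, 95% interval -0.19 to 0.21, adjusted p = 0.988), and DES against control was -0.05 ± 0.09 (SE, 95% interval -0.24 to 0.15, adjusted p = 0.948). The matched-age values at E17, E18 and P0 had both signs, -0.09, -0.13 and 0.26 for BPA and -0.15, -0.10 and 0.11 for DES. By age, Aldh1a2 averaged 1766 ± 94.2 at E17, 1738 ± 82.1 at E18 and 1507 ± 136 at P0 (SD, n = 3 each). Each P0 array was below every E17 and every E18 array. P0 against E17 was -0.23 ± 0.09 (SE, adjusted p = 0.234) and P0 against E18 was -0.21 ± 0.09 (SE, adjusted p = 0.355), and neither passed. Without the control P0 array, P0 against E17 was -0.13.

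Aldh1a1, a related dehydrogenase of epithelia and of steroid-producing tissue, was set apart by 1 array. Its signal was 993, 1047 and 2460.3 at E17, E18 and P0 in BPA arrays, 723, 1298 and 601 in DES arrays, and 1134, 1145 and 812 in control arrays. The BPA P0 value was the highest of all 9, and the other 8 arrays lay between 601 and 1298. With age as a factor, BPA against control was 0.42 ± 0.35 on the log2 scale (SE, 95% interval -0.37 to 1.22, adjusted p = 0.815), with matched-age values of -0.19, -0.13 and 1.59. Without the BPA P0 array it was -0.19, the opposite direction, and without the BPA E18 array it was 0.82.

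The summed signal of the 9 gonad and steroid cell genes was 695, 642 and 3918 at E17, E18 and P0 in BPA arrays, 674, 714 and 646 in DES arrays and 707, 662 and 661 in control arrays. The array with the high sum was also the array with high Aldh1a1. None of the 9 genes was at 0 on any array, but only 4 of them passed the filter on low signal. Amh, Hsd3b1, Cyp17a1, Cyp11a1 and Nr5a1 did not. The part of gonad and steroid cells in the Aldh1a1 value was not tested. The change of the BPA effect per age step, a trend fitted over E17, E18 and P0 against the same trend in control, was 0.89 ± 0.33 for Aldh1a1 (SE, adjusted p = 0.527).

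**Figure D2:**
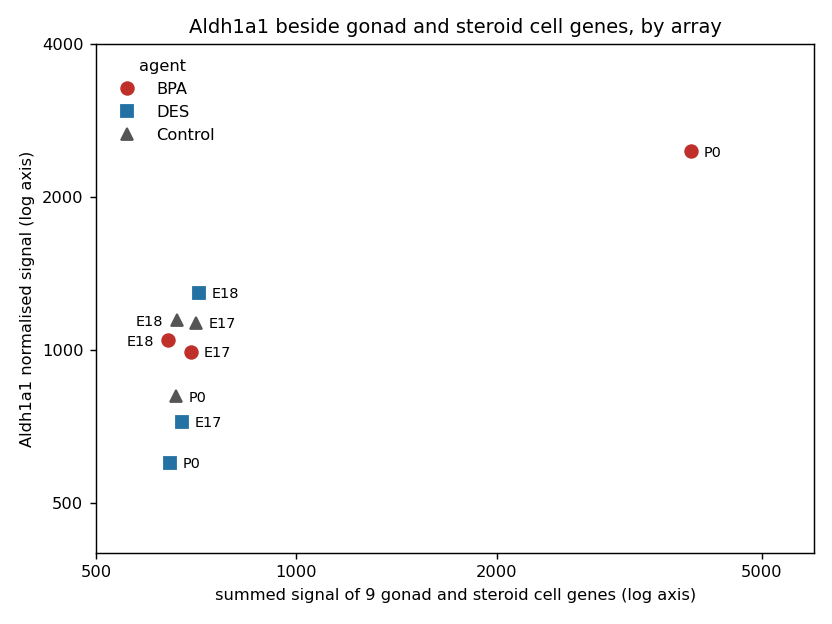
Normalised signal of Aldh1a1 on each array against the summed normalised signal of 9 gonad and steroid cell genes, both on log axes, with 1 point per array coloured by agent and labelled by age. The BPA P0 array lies alone at 3918 and 2460.3, and the other 8 arrays have sums of 642 to 714 and Aldh1a1 of 601 to 1298.

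Aldh1a3, a dehydrogenase known in the ureteric bud and olfactory epithelium, was read by 3 probe sets that gave differences of unequal size. Probe set 1427395_a_at gave 113, 134 and 134 at E17, E18 and P0 in BPA arrays, 74.4, 122 and 112 in DES arrays, and 142, 201 and 175 in control arrays. All BPA arrays and all DES arrays were below all control arrays. DES against control was -0.73 ± 0.15 on the log2 scale (SE, 95% interval -1.07 to -0.40, adjusted p = 0.843), with -0.88, -0.70 and -0.62 at the matched ages. Only 0.0185% of tested probe sets had a smaller p in that comparison, yet neither it nor any other probe set had an adjusted p that passed. For BPA the difference from control was -0.42 ± 0.15 (SE, 95% interval -0.75 to -0.08, adjusted p = 0.535), with -0.32, -0.56 and -0.38 at the matched ages.

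The differences of the other Aldh1a3 probe sets were smaller. Probe set 1448789_at gave 793, 771 and 669.7 in BPA arrays, 631, 1031 and 917 in DES arrays, and 876, 1234 and 829 in control arrays at E17, E18 and P0. Here the BPA arrays again lay below all control arrays, with a log2 difference of -0.37 ± 0.15 (SE, adjusted p = 0.595), whereas DES overlapped with control at -0.19 ± 0.15 (SE, adjusted p = 0.877). The BPA difference was -0.24 without the BPA E18 array and -0.0047 without both BPA E18 and BPA P0. Leaving out the same pair of arrays gave -0.24 for 1427395_a_at. Probe set 1417642_at, at 250.3 to 263 in BPA arrays, 211 to 318 in DES arrays and 257 to 372 in control arrays, overlapped in both comparisons. Its log2 differences were -0.19 ± 0.16 for BPA (SE, adjusted p = 0.824) and -0.12 ± 0.16 for DES (SE, adjusted p = 0.931), and the first was -0.06 without the BPA E18 array. The fitted differences were below 0 for all 3 probe sets under both agents, but their sizes disagreed, and the DES differences of 1417642_at and 1448789_at turned when 1 array was left out. By age, probe set 1427395_a_at was higher at E18 than at E17 under each agent, with a log2 difference of 0.46 ± 0.15 (SE, adjusted p = 1), and higher at P0 than at E17, with 0.36 ± 0.15 (SE, adjusted p = 0.257).

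No receptor probe set passed the test between agents. Rarb, whose own transcript is induced by retinoic acid, gave 557, 506 and 387 at E17, E18 and P0 in BPA arrays, 573, 501 and 502 in DES arrays, and 502, 507 and 445 in control arrays. BPA against control was -0.02 ± 0.11 on the log2 scale (SE, 95% interval -0.27 to 0.23, adjusted p = 0.987) and DES against control was 0.11 ± 0.11 (SE, 95% interval -0.14 to 0.37, adjusted p = 0.896). The matched-age BPA values were 0.15 (E17), -0.004 (E18) and -0.20 (P0). Rarb holds the same kind of repeat as Cyp26a1 in the windows shown above. Its fitted difference from control was near 0 under BPA, where that of Cyp26a1 was -0.77. The difference between these genes was not tested, and which start the Rarb probe set reads is not given in the sources used here. By age Rarb averaged 544 ± 37.5 at E17, 505 ± 3.08 at E18 and 445 ± 57.4 at P0 (SD, n = 3 each). P0 against E17 was -0.29 ± 0.11 (SE, adjusted p = 0.234), lower under each agent, with arrays that overlapped by less than 1 signal unit after quantile normalization and did not overlap after scaling to a trimmed mean. It was -0.19 without the BPA P0 array.

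Rara, the broadly expressed receptor, gave 111, 106 and 157 at E17, E18 and P0 in BPA arrays, 81.7, 123 and 100.6 in DES arrays, and 140.1, 121 and 87.1 in control arrays. The groups overlapped fully, with BPA against control at 0.10 ± 0.24 (SE, 95% interval -0.43 to 0.64, adjusted p = 0.951) and DES against control at -0.17 ± 0.24 (SE, adjusted p = 0.93). Its BPA differences from control, -0.33 for E17, -0.18 for E18 and 0.81 for P0, gave a trend of 0.57 ± 0.24 per age step (SE, adjusted p = 0.573). The trend was 0.00074 without the BPA P0 array, whose gonad gene sum was 3918 against 661 in the control P0 array, and it was 1.14 with BPA E17 left out.

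Rarg, the receptor of skin and other squamous epithelia, was read by a pair of probe sets. Probe set 1419415_a_at gave 823, 729 and 727 at E17, E18 and P0 in BPA arrays, 777, 681 and 769.9 in DES arrays, and 727, 765 and 605 in control arrays. Probe set 1419416_a_at gave 309, 249 and 253 in BPA arrays, 248, 163 and 259.8 in DES arrays, and 285, 277 and 181 in control arrays. Both overlapped in every comparison of agents. The BPA differences were 0.12 ± 0.11 (SE, adjusted p = 0.83) and 0.15 ± 0.20 (SE, adjusted p = 0.898), and the DES differences were 0.09 ± 0.11 (SE, adjusted p = 0.92) and -0.15 ± 0.20 (SE, adjusted p = 0.93).

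Crabp1, a binding protein linked to the delivery of retinoic acid to its breakdown, was low in all BPA arrays. Its signal was 152, 149.95 and 167 at E17, E18 and P0 in BPA arrays, 462, 184 and 194 in DES arrays, and 221, 182 and 231 in control arrays. Every BPA array was below every control and every DES array, and the DES E17 array was the highest of the 9. The BPA difference from control was -0.42 ± 0.25 on the log2 scale (SE, 95% interval -0.98 to 0.14, adjusted p = 0.739), -0.17 without the BPA E17 array, -0.28 without the control P0 array and -0.91 without both BPA E18 and BPA P0. BPA against DES was -0.69 ± 0.25 (SE, 95% interval -1.25 to -0.13, adjusted p = 0.672), -0.28 without the DES E17 array, -0.44 without the BPA E17 array and -1.18 without both BPA E18 and BPA P0. DES against control was 0.27 ± 0.25 (SE, adjusted p = 0.891), with 1.04 at E17, 0.02 at E18 and -0.25 at P0.

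Crabp2, which carries retinoic acid to the receptors, was lower at P0 than at E17 under each agent. Its signal was 400.006, 347 and 319 at E17, E18 and P0 in BPA arrays, 509, 458 and 354 in DES arrays, and 439.9, 391 and 201 in control arrays. It averaged 449.5 ± 54.9 at E17, 399 ± 55.9 at E18 and 291 ± 80.2 at P0 (SD, n = 3 each), and every P0 array was below every E17 array. P0 against E17 was -0.65 ± 0.16 on the log2 scale (SE, 95% interval -1.01 to -0.29, adjusted p = 0.128), with -0.32 under BPA, -0.51 under DES and -1.11 in control. It passed with the values as deposited, at -0.96 and adjusted p = 0.0268, where the median of all probe sets itself was at -0.294 in this comparison. Without the control P0 array the difference was -0.42.

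DES arrays were above control for Crabp2 at each age, by 0.21, 0.23 and 0.80 on the log2 scale. The fitted difference was 0.41 ± 0.16 (SE, 95% interval 0.05 to 0.77, adjusted p = 0.843), and the groups overlapped. It was 0.18 without the control P0 array. Under BPA the difference was 0.12 ± 0.16 (SE, adjusted p = 0.899), with -0.14, -0.17 and 0.65 at these ages. At P0, the sum of keratinised epithelium genes was 19716 in the BPA array against 995 in the control array, and its part in the Crabp2 value was not tested.

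**Figure D3:**
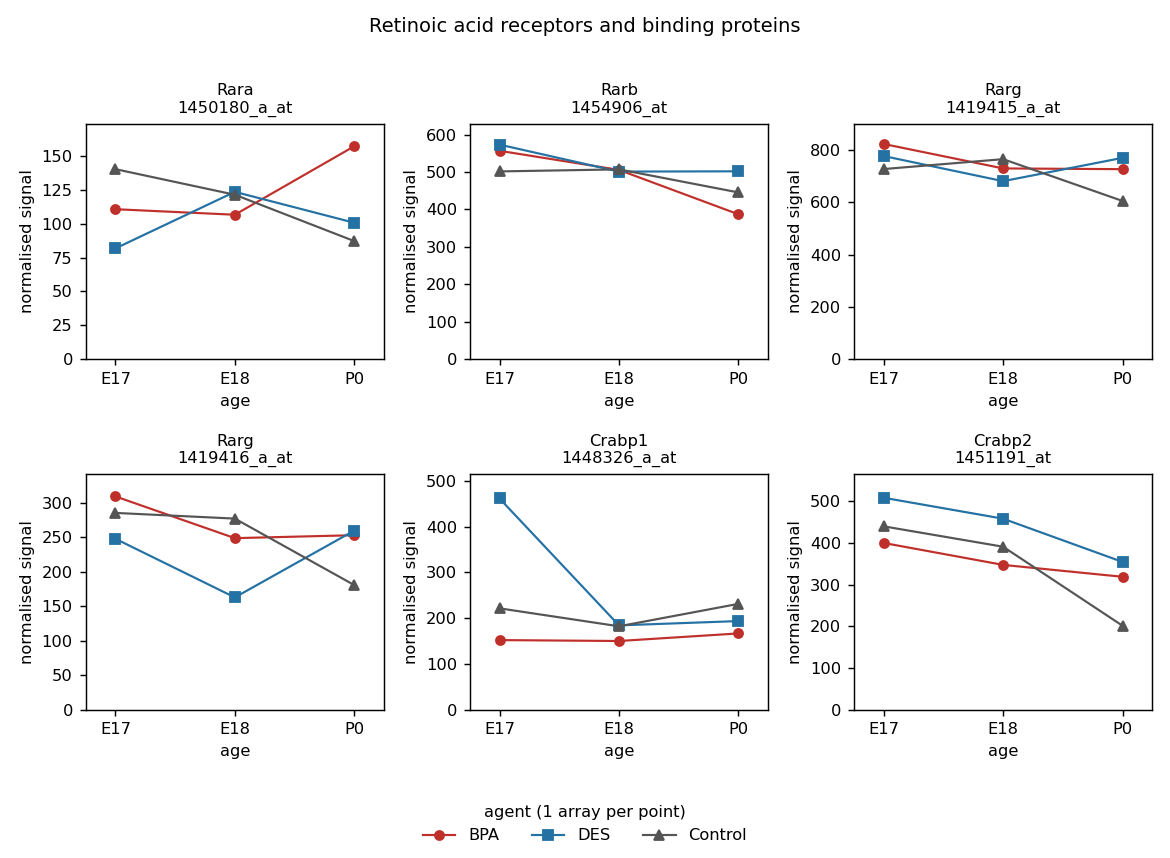
Normalised signal (linear axis from 0) of the receptor and binding protein probe sets on the 9 arrays, by age at E17, E18 and P0, with BPA, DES and control drawn as separate series and 1 array per point. Crabp1 is below control in each BPA array, and the P0 points of Crabp2 (319 in BPA, 354 in DES, 201 in control) lie below all its E17 points.

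The BPA comparison was then counted over all 13 probe sets. None passed an adjusted p of 0.05, as was the case for all tested probe sets (0% called). At an unadjusted p under 0.05, 3 of 13 were lower and none higher, beside 7.84% of all tested probe sets in either direction. Without overlap between the 3 BPA and 3 control arrays, 4 of 13 were lower (Cyp26a1, Crabp1 and 2 probe sets of Aldh1a3, which share a gene) and none higher. Of all 26999 tested probe sets, 10.3% lay apart in either direction, 1363 higher and 1420 lower. The same 4 lay apart from control after scaling to a trimmed mean and with the values as deposited. The deposited values shift the median of all probe sets by -0.242 in this comparison, toward lower BPA. The median log2 difference of the 13 was -0.02, with 6 above and 7 below 0, beside -0.00 over all tested probe sets.

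Marker lists of other cell types also differed between BPA and control arrays. Neuron markers were lower in all 5 genes on average, and 4 of 5 lay below all control arrays, with sums of 5651 to 5954 in BPA arrays, 5427 to 6214 in DES arrays and 6313 to 7340 in control arrays. Urothelium markers had sums of 4789 to 6702 in BPA arrays, 4500.25 to 5814 in DES arrays and 3529 to 4125 in control arrays, with 3 of 5 genes above all control arrays in BPA. Keratinised epithelium markers had 5 of 7 genes above all control arrays, with sums of 1659 to 19716 in BPA arrays, 1254 to 2120 in DES arrays and 995 to 1104 in control arrays. Mesothelium markers had sums of 3560 to 3834 in BPA arrays, 2786 to 3448 in DES arrays and 3001 to 3384 in control arrays, with 3 of 5 genes higher on average under BPA. Smooth muscle markers were higher on average under BPA in 6 of 6 genes, with sums of 36064, 34433 and 33784 at E17, E18 and P0 in BPA arrays, 26906 to 30023 in DES arrays, and 34233, 20891 and 22478 in control arrays. No marker of these lists was at 0 on any array, and all passed the filter on low signal except Lce1m of the keratinised epithelium. The part of these cell types in the lower Cyp26a1, Aldh1a3 and Crabp1 signals was not tested.

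For DES against control, none of 13 passed (0% called over all tested probe sets). At an unadjusted p under 0.05 there were 2, Crabp2 higher and Aldh1a3 1427395_a_at lower, beside 5.63% of all. Only that Aldh1a3 probe set lay apart from control, 1 of 13 beside 10.9% of all. The median difference of the 13 was -0.15, with 4 above and 9 below 0, beside 0.00 over all tested probe sets. For BPA against DES none passed (0% called), Crabp1 alone had an unadjusted p under 0.05 (7.21% of all), and it alone did not overlap (11.9% of all).

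**Figure D4:**
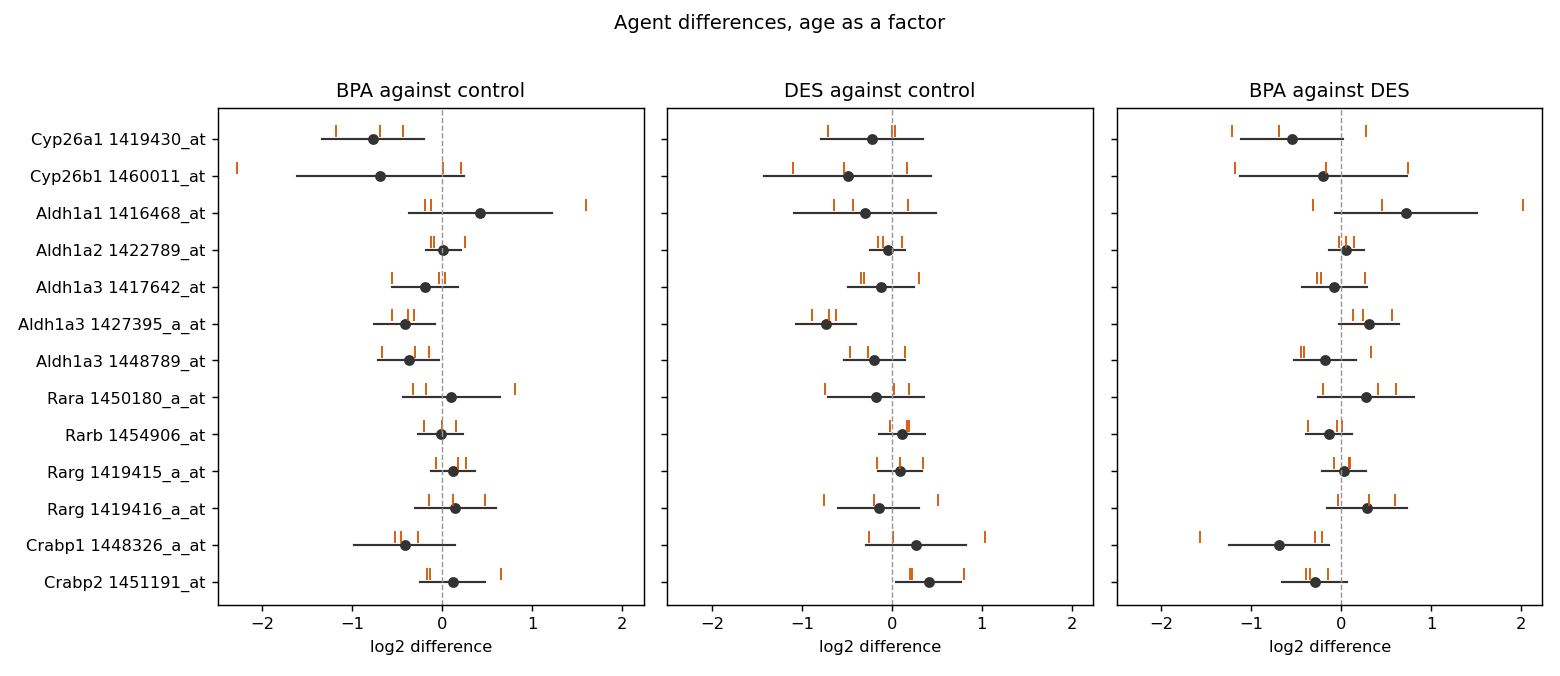
Log2 differences of the 13 probe sets for BPA against control, DES against control and BPA against DES, with age as a factor. Points are fitted differences, bars are 95% intervals and orange ticks are the differences of single arrays at matched ages; the intervals of Cyp26a1 under BPA (-1.34 to -0.20) and of Aldh1a3 1427395_a_at under DES (-1.07 to -0.40) lie below 0, and no adjusted p passed.

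The ages were compared with agent as a factor. For P0 against E17, 0.0926% of tested probe sets passed, 24 higher and 1 lower, and none of the 13. At an unadjusted p under 0.05 there were 4 of 13, with Crabp2, Rarb and Aldh1a2 lower and Aldh1a3 1427395_a_at higher, beside 17.3% of all. Crabp2 and Aldh1a2 did not overlap, 2 of 13 beside 19.9% of all. For E18 against E17 none passed (0% called), 3 of 13 had an unadjusted p under 0.05 (2.75% of all), namely Cyp26b1 lower and 2 Aldh1a3 probe sets higher, and Cyp26b1 alone did not overlap (9.43% of all). For P0 against E18 none passed (0% called), 3 of 13 had an unadjusted p under 0.05 (13.5% of all), namely Cyp26b1 higher and Crabp2 and Aldh1a2 lower, and Aldh1a2 alone did not overlap (14.3% of all).

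The agents' differences from control were also tested for a trend per age step. For BPA, 0.00741% of tested probe sets passed and none of the 13, while Aldh1a1, Rara and Crabp2 had an unadjusted p under 0.05, all with slopes above 0 (8.56% of all). Crabp2 gave 0.39 ± 0.16 per step (SE, adjusted p = 0.555), 0.11 without BPA P0, 0.041 without control P0, 0.68 without BPA E17 and 0.74 without control E17. The Aldh1a1 trend was -0.30 when BPA P0 was left out and 2.08 when BPA E17 was left out. Leaving out BPA P0 lowered all 3 slopes. With 3 ages, leaving out BPA E17 then has to raise them, so it adds no separate result. Such a slope rests on the E17 and P0 arrays of BPA and control alike, and these fits cannot show which array lies behind it. The matched-age BPA differences of Aldh1a1 were -0.19 (E17), -0.13 (E18) and 1.59 (P0). The part of the high gonad and keratinised epithelium sums of BPA P0 in the slopes was not tested. For DES none passed (0% called), and Crabp1 alone had an unadjusted p under 0.05 (7.22% of all), at -0.65 ± 0.20 per step (SE, adjusted p = 0.641). That slope was -0.15 without the DES E17 array and -1.14 without the DES P0 array. Cyp26a1 had slopes of 0.37 ± 0.22 for BPA (SE, adjusted p = 0.665) and -0.37 ± 0.22 for DES (SE, adjusted p = 0.754).

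**Figure D5:**
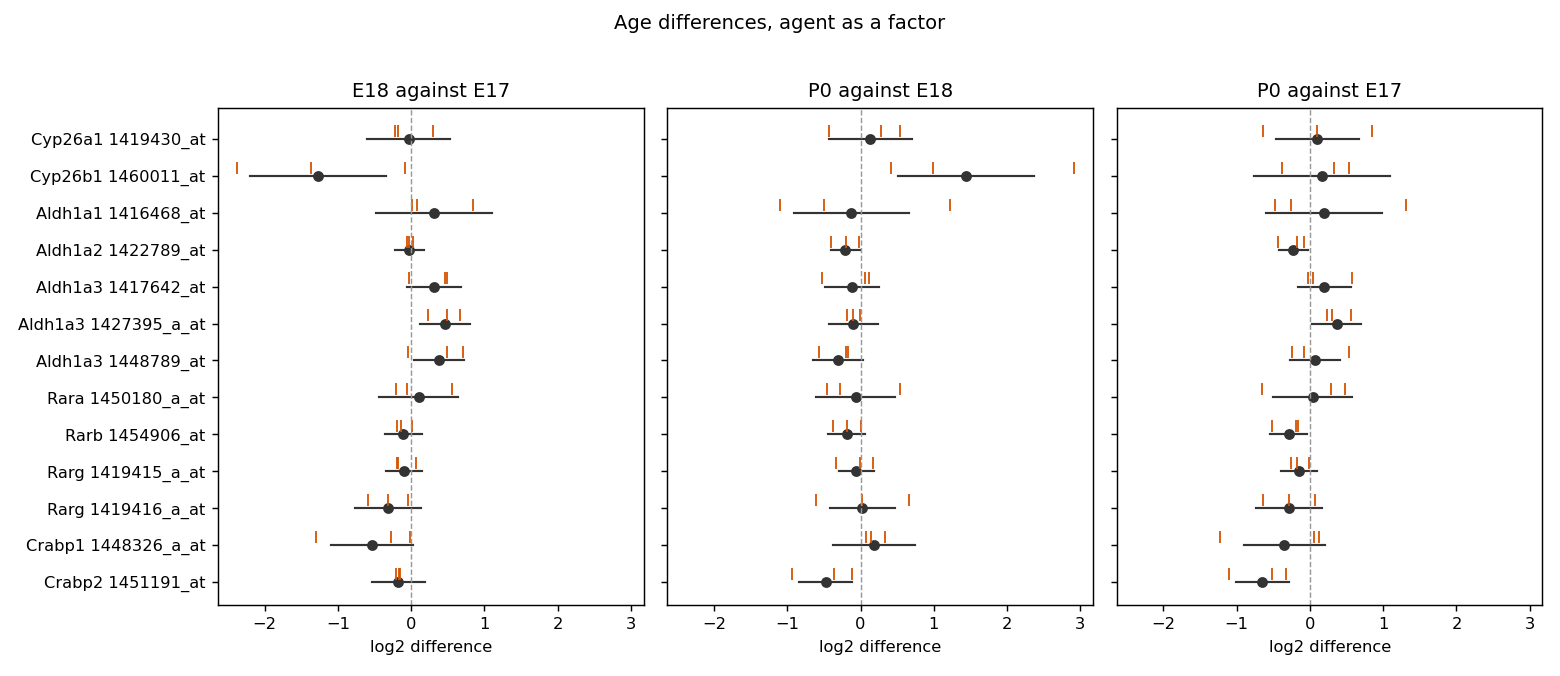
Log2 differences of the 13 probe sets for E18 against E17, P0 against E18 and P0 against E17, with agent as a factor. Points are fitted differences, bars are 95% intervals and orange ticks are the differences of single arrays under the same agent; Crabp2 is lower at P0 under all 3 agents, and Cyp26b1 has the widest intervals.

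The genes varied unequally over the 9 arrays. The range from lowest to highest array was 2.91 on the log2 scale for Cyp26b1, 2.02 for Aldh1a1 and 1.59 for Crabp1, and it was 0.44 for Aldh1a2 and 0.56 for Rarb. In the fit of age and agent, Aldh1a2 had a residual SD above that of 20.5% of tested probe sets and Rarb above 24.7%, against 98.3% for Aldh1a1 and 90.0% for Cyp26a1. The median absolute difference of the 13 was 0.19 for BPA against control, beside 0.12 over all tested probe sets, and 0.31 for E18 against E17, beside 0.09.

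The genes around the pathway did not pass in any comparison either. Of 23 genes of retinol handling, which take up, carry and oxidise retinol, 14 were tested; of 14 partners and coregulators of the receptors, 11; and of 13 genes known to respond to retinoic acid, 9. In BPA arrays the retinol handling genes had a median log2 difference from control of 0.07, with 8 above and 6 below 0. Adh1, an alcohol dehydrogenase that oxidises retinol, was at 0.29 ± 0.09 (SE, adjusted p = 0.49), with Rdh11 at -0.17 ± 0.12 and Adh5 at 0.09 ± 0.07 (SE). The summed signal of 21 analysed genes of this list was 9510.5 to 9671 in BPA arrays, 8619.8 to 9425 in DES arrays and 8605 to 8882 in control arrays. Adh1, the brightest of them, gave 2808, 2758 and 2981 at E17, E18 and P0 in BPA arrays. It gave 2163, 2853 and 2796 in DES arrays and 2371, 2366 and 2256 in control arrays. Of the 21 genes, 1 lay above and 1 below all control arrays under BPA, so the sum does not stand for the list.

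The receptor partners and coregulators had a median of -0.26 under BPA, with 2 above and 9 below 0 and 4 of 11 at an unadjusted p under 0.05, beside 7.84% of all tested probe sets. Rxrg, the retinoid X receptor gamma that pairs with the retinoic acid receptors, gave 31.0, 18.4 and 59.8 at E17, E18 and P0 in BPA arrays, 74.8, 91.1 and 105 in DES arrays, and 59.9, 58.9 and 81.4 in control arrays. BPA was below control at each age but overlapped across ages, with a log2 difference of -0.89 ± 0.26 (SE, adjusted p = 0.458). The BPA values at E17 and E18 were below the filter signal of 41.2. The coactivator Ncoa3 was at -0.28 ± 0.12 and the nuclear receptor Ppard at -0.30 ± 0.21 (SE). Ppard was not among the genes with an unadjusted p under 0.05. Besides Rxrg and Ncoa3 these were Nr2f2 at -0.26 ± 0.075 (SE, adjusted p = 0.459) and Nrip1 at -0.26 ± 0.10 (SE, adjusted p = 0.584), named after their values were seen. Skeletal muscle markers, of which none was at 0, were lower on average in 8 of 8 genes under BPA, with sums of 2240.4 to 9011 in BPA arrays, 6043 to 12642 in DES arrays and 5523 to 11602 in control arrays, and their part in the Rxrg signal was not tested.

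The responsive genes had a median of 0.07 under BPA, with 5 above and 4 below 0. Rarres2, the chemerin gene, which retinoids induce in human skin, gave 1151, 889.9 and 1099.9 at E17, E18 and P0 in BPA arrays, 647, 921 and 817 in DES arrays, and 836, 524 and 729.7 in control arrays. The BPA arrays were all above the control arrays, with a log2 difference of 0.60 ± 0.18 (SE, adjusted p = 0.459). Tgm2, a transglutaminase induced by retinoic acid in several cell types, was at 0.34 ± 0.15 (SE).

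Under DES the medians were 0.05, -0.05 and 0.04 for retinol handling, receptor partners and responsive genes, with 9 of 14, 4 of 11 and 6 of 9 genes above 0. Among the genes on the same side of control at all ages were Dhrs3, a retinaldehyde reductase induced by retinoic acid, at 0.14 ± 0.10, Rxrg at 0.41 ± 0.26, the corepressor Nrip1 at -0.13 ± 0.10, the coactivator Ncoa2 at 0.14 ± 0.09, Adh5 at 0.05 ± 0.07 and the germ cell gene Stra8 at -0.14 ± 0.23 (SE). Rdh10, which oxidises retinol in the embryo, was the 1 gene of these lists with an unadjusted p under 0.05, beside 5.63% of all tested probe sets, at -0.26 ± 0.11 (SE, adjusted p = 0.843), and it was named after its value was seen.

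For P0 against E17 the medians of these lists were 0.08, -0.10 and 0.04. Stra6, the membrane receptor that takes up retinol from its carrier, gave a log2 difference of -0.56 ± 0.16 (SE, adjusted p = 0.162), and Ttr, the plasma protein that travels with retinol-binding protein, gave -1.78 ± 0.66 (SE, adjusted p = 0.221). Meis1, a homeobox gene that retinoic acid induces in limb buds, was at -0.49 ± 0.11 (SE, adjusted p = 0.109). Others on the same side under all 3 agents were Dhrs3 at -0.20 ± 0.10, Rxrg at 0.57 ± 0.26, Ncoa3 at -0.22 ± 0.12, the fatty acid and retinoic acid binding protein Fabp5 at -0.18 ± 0.05 and the receptor tyrosine kinase Ret at 0.25 ± 0.12 (SE).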

How the data were processed

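Total RNA of 9 UGS samples was hybridised, 1 array per agent and age. The authors deposited 1 linear signal intensity per probe set in the series table, made with MAS5 per the submitters' processing notes; a scaling target is not given in the sources used here. The deposited intensity values were quantile normalised and log2(value + 5.46) was taken, 5.46 being their 10th percentile. Probe sets with a mean log2 value above the 40th percentile (5.54, a signal of 41.2) were tested, 26999 of 45101. limma 3.58.1 (R 4.3.3) fitted age and agent as factors with an intensity trend, Benjamini-Hochberg adjustment over all tested probe sets and a threshold of 0.05; a second model fitted a linear change of each agent's difference per age step. Residual degrees of freedom were 4 and 2. Fold changes are on the log2(value + pseudocount) scale, which understates changes of dim genes. The number of arrays limits the precision.

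Probe sets were named through the platform annotation: 34958 had 1 symbol, 932 several and 9211 none. All probe sets of the 10 genes are described. From each pathway list, 1 probe set per gene, the brightest, was used, and up to 3 genes were named with the largest difference of the same sign at all 3 ages or under all 3 agents. The genes and lists were chosen with earlier results of these data known. Alternatives were the deposited values, scaling to a 2% trimmed mean, pseudocounts of 1 and 16, no filter, 1 probe set per gene, no trend, no age term, and leaving out arrays. No 2 arrays were identical.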

Additional observations from a re-analysis of the deposited data

How the results depend on the processing

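No agent has a repeated array at any age, and the number of arrays limits what can pass. Of 456 alternative values of 25 described differences, 447 kept their direction, 9 turned and 4 passed. Many could not turn, since leaving out the filter, the intensity trend or the age term does not change a fitted difference. Nor does using 1 probe set per gene, and without the DES E17 array the BPA difference of Cyp26a1 stayed at -0.77. The counts of kept direction are therefore no measure of stability. Cyp26a1 under BPA was lower in 19 of 19 alternatives (-1.31 to -0.50, adjusted p 0.192 to 0.909), and Aldh1a3 1427395_a_at under DES in 18 of 18 (-0.79 to -0.63, adjusted p 0.708 to 1). Crabp2 at P0 against E17 ranged from -0.96 to -0.42 (adjusted p 0.0268 to 0.44), and passed with deposited values only. Deposited values shift the median of all probe sets by -0.242 for BPA against control, -0.326 for BPA against DES, -0.294 for P0 against E17, -0.119 for E18 against E17 and -0.171 for P0 against E18.

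With deposited values, 34 probe sets passed for BPA against control, 38 for BPA against DES, 392 for P0 against E17, 3 for E18 against E17, 7 for P0 against E18, 448 for the BPA trend and 80 for the DES trend; 1 retinoic acid probe set passed, for P0 against E17. With no filter 7 passed for P0 against E17. With 1 probe set per gene, 2 passed for BPA against control, 83 for P0 against E17 and 8 for the BPA trend. With no intensity trend 0 passed for P0 against E17 and 0 for the BPA trend. With BPA E18 and BPA P0 both left out, 4 passed for BPA against control, 6 for BPA against DES and 0 for P0 against E17, and Aldh1a1 and Aldh1a3 1417642_at under BPA turned to -0.017 and 0.056. Without the DES arrays 215 passed for P0 against E17 and 5 for P0 against E18, and without the BPA arrays 1 for P0 against E17. The causes were not tested.

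Leaving out each array in turn gave 0 to 7 calls for BPA against control (7 without control E17), 0 to 4 for BPA against DES, 0 to 1606 for P0 against E17 (1606 without DES P0, 0 without DES E17 or control E17), 0 to 1 for E18 against E17, 0 to 663 for P0 against E18 (663 without DES P0), 0 to 166 for the BPA trend and 0 to 132 for the DES trend. Between 0 and 1 retinoic acid probe set passed for the BPA trend, namely Aldh1a1 without any 1 DES array (0.89, adjusted p 0.0354 to 0.0375). Differences that turned ranged from -0.19 to 0.82 for Aldh1a1 under BPA, -0.30 to 2.08 for its trend, -0.28 to 0.035 for Aldh1a3 1417642_at, -0.35 to 0.00142 for Aldh1a3 1448789_at, -0.14 to 0.52 for Crabp1 and -0.46 to 0.10 for Cyp26a1, the last 4 under DES. The labels carry no replicate numbers, and arrays of the same age were matched through the age term. The trends were not fitted without an age term or without whole groups.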
